A study of Danio rerio with 12 samples.

Results

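Zebrafish embryos held in 30 µg/L methylmercury were compared with embryos held in 6 µg/L methylmercury, so that both sides of the comparison had been exposed and differed in dose. The 2 groups hold 3 libraries each, 6 of the 12 libraries of the series, and were taken by their treatment labels. All embryos were labelled WT, were exposed from 4 h to 72 h post-fertilisation (hpf) and were harvested whole, and poly(A) RNA was sequenced as paired reads of 150 bases. The other libraries are 3 at 50 µg/L and 3 untreated controls (0 µg/L), which are used below to place the levels on the dose series. Nothing in the labels ties a library to a clutch or a tank. The p-values therefore reflect no more than the spread among these libraries, which may be technical, and clutch and dose cannot be told apart. In bulk RNA from whole embryos, fewer cells of a type and less RNA per cell cannot be told apart either.

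Methylmercury is an organic form of mercury that passes into the brain and binds strongly to the sulfur of thiols and to the selenium of selenoproteins. Cells answer such compounds through the transcription factor Nrf2, which is held back by Keap1 and, once freed, drives genes for glutathione supply, peroxide removal and conjugation. Metallothioneins bind metal ions, heat shock proteins hold damaged proteins and the proteasome removes them. In the zebrafish larva the eye and brain are still adding neurons and photoreceptors over these days, while gut, pancreas and liver begin to function.

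The 6 libraries held 15665053 to 22207603 gene counts. Libraries of the same dose lay close together, with Spearman correlations of 0.993 to 0.995 within 30 µg/L, of 0.991 to 0.993 within 6 µg/L and of 0.968 to 0.976 between the doses. Lists of muscle, liver, gut, neuron, blood, skin and cartilage markers all had measured members, as a whole embryo holds. Of 32057 genes, 19714 had a mean FPKM of at least 0.5 over the 6 libraries and were tested with edgeR's quasi-likelihood test with Benjamini-Hochberg adjustment. At an adjusted p under 0.05, 6737 genes passed (34.2%), 3379 of them higher at 30 µg/L (17.1%) and 3358 lower (17.0%). These percentages are the background against which the counts in each gene list below should be read. The split rests on TMM scaling, with factors computed in the fit from its 6 libraries and tested genes. The factors computed over all 12 libraries, used for the CPM levels, were 0.959 to 0.975 at 30 µg/L and 1.04 to 1.08 at 6 µg/L. With library totals alone, the median of all genes shifted from -0.01 to -0.13 (log2), and 2139 genes were called higher and 5327 lower, so that lists with a small positive median change sign. Only 1057 genes differed at least 2-fold, 547 of them higher and 510 lower. Levels are given below as CPM (counts scaled to a fixed library size) in the order of replicates 1 to 3, and changes as log2 fold changes ± SE of 30 over 6 µg/L. Most genes named below were picked for a large change, a small p or a lack of overlap. These traits are therefore no added support for them.

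**Figure D1:**
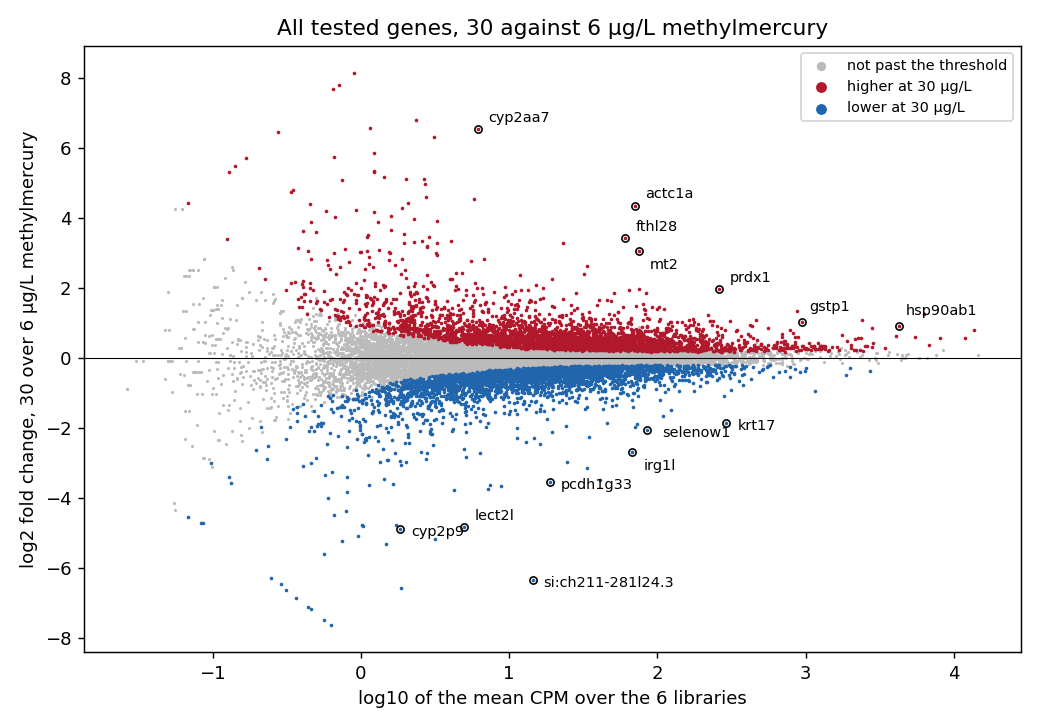
Each point is 1 of the 19714 tested genes, placed by the log10 of its mean CPM over the 6 libraries and by its log2 fold change, 30 over 6 µg/L. Red points were called higher at 30 µg/L and blue points lower, grey points did not pass the threshold, and 14 genes of the text are ringed. The called genes lie about equally above and below 0.

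The metallothionein gene mt2 and many genes of the antioxidant response were higher at 30 µg/L. For mt2 (ENSDARG00000041623, chromosome 18, 17534627 to 17535979 in GRCz11), which encodes a metal-binding protein, the level was 146, 102 and 156 CPM at 30 µg/L, against 17.9, 16.7 and 13.8 CPM at 6 µg/L. The groups did not overlap, and the change was 3.05 ± 0.15 (adjusted p = 5.1e-08). At 6, 30 and 50 µg/L its mean was 16.2, 134 and 732 CPM. The metallothionein and metal transport list was mixed, with 5 of 20 genes higher, mt2 included, and 3 lower. Among these, the manganese exporter gene slc30a10 changed by 1.24 ± 0.20 and the zinc transporter gene slc30a4 by 1.03 ± 0.09, while the copper importer gene slc31a1 fell by 0.68 on the log2 scale. Without replicate 3 of 30 µg/L, 3 of the list were called higher.

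Of 13 regulators of the Nrf2 pathway 6 rose and 0 fell (median 0.28, against -0.01 over all genes). The genes of the repressor, keap1b and keap1a, were among them, with changes of 1.22 ± 0.11 and 0.73 ± 0.10, and so was sqstm1, whose product binds Keap1 and carries cargo to autophagy (1.12 ± 0.12). The count was 3 without replicate 3 of 30 µg/L and 3 with library totals alone. In the list for glutathione and NADPH supply 13 of 28 rose and 2 fell. The glutathione reductase gene gsr was at 127, 106 and 125 CPM at 30 µg/L, against 49.8, 43.0 and 43.8 CPM at 6 µg/L, a change of 1.39 ± 0.09 with no overlap. It stood at 24.5, 45.5, 119 and 181 CPM on average at 0, 6, 30 and 50 µg/L. The gene of the rate-limiting enzyme of glutathione synthesis, gclc, moved less, by 0.62 ± 0.08. Genes of the pentose phosphate pathway, which supplies NADPH, rose too: taldo1 by 0.86 ± 0.08, pgd by 0.80 ± 0.08 and tktb by 0.62 ± 0.07.

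Enzymes that remove peroxides and conjugate electrophiles followed the same direction. The peroxiredoxin gene prdx1 (chromosome 2, 6104378 to 6115688) was at 447, 379 and 417 CPM at 30 µg/L, against 123, 95.1 and 99.8 CPM at 6 µg/L. The groups lay far apart (1.97 ± 0.10, adjusted p = 6.2e-08), and the mean at 50 µg/L was 572 CPM. In its list 12 of 23 rose and 2 fell, among them the gene of an extracellular superoxide dismutase, sod3a (2.01 ± 0.15), the heme oxygenase gene hmox1a (0.94 ± 0.08) and prdx2 (0.94 ± 0.07). For hmox1a the adjusted p was 0.052 when all 12 libraries were fitted. The thioredoxin reductase gene txnrd3 changed by only 0.29 ± 0.07 and was no longer called with library totals alone or with 12 libraries. Of 41 conjugation genes 20 rose and 4 fell, against 16 and 10 with library totals alone. The glutathione transferase gene gstp1 was at 1333, 1190 and 1275 CPM at 30 µg/L, against 672, 529 and 643 CPM at 6 µg/L (1.04 ± 0.09). Its fellow conjugation genes mgst3b (1.09 ± 0.11), the sulfotransferase gene sult1st5 (1.84 ± 0.16) and the carbonyl reductase gene cbr1l (1.41 ± 0.11) rose as well.

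Selenoprotein genes moved the other way. These proteins carry selenocysteine, and 15 of 30 genes fell while 6 rose, with a median of -0.37. The selenoprotein W gene selenow1 was at 29.9, 40.2 and 29.8 CPM at 30 µg/L, against 150, 129 and 134 CPM at 6 µg/L, a change of -2.05 ± 0.11 (adjusted p = 1.3e-07). No library of one dose reached the range of the other, while the 50 µg/L libraries averaged 24.8 CPM and the untreated controls 255 CPM. Its relative selenow2a fell by 0.97, and selenos and selenok, genes of proteins of the endoplasmic reticulum membrane, fell by 1.13 and 0.80 on the log2 scale. With all 12 libraries fitted, 7 of the list fell and 2 rose.

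**Figure D2:**
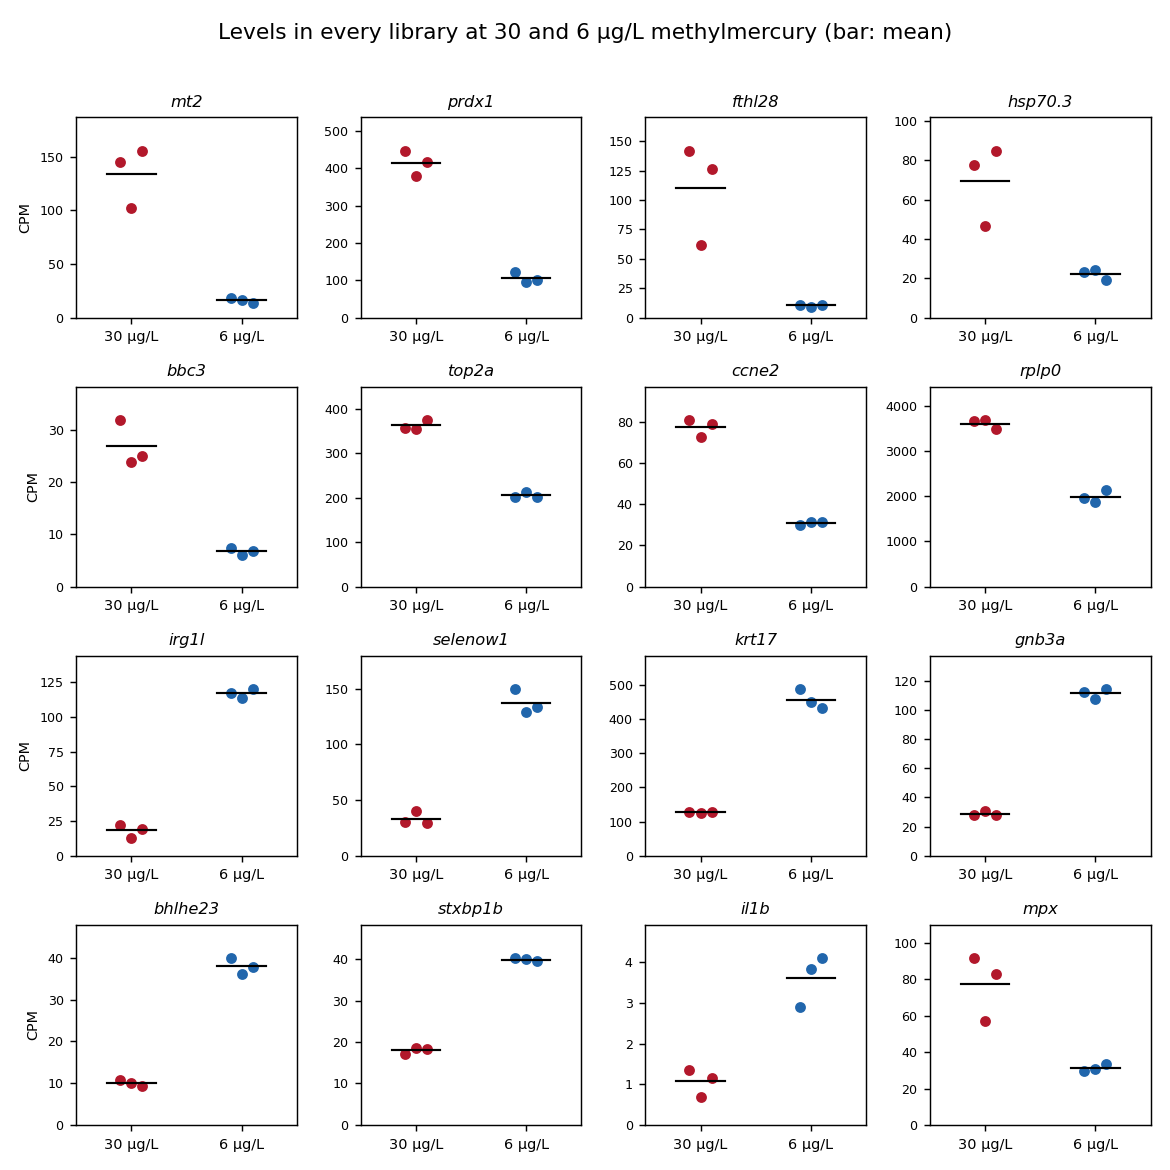
Each panel shows the CPM of 1 gene in every library at 30 µg/L (red, left) and at 6 µg/L (blue, right), with bars at the means and axes that start at 0. In all 16 panels the libraries of the 2 doses do not overlap. Most of these genes were picked for a large change, a small p or a lack of overlap, so the separation is no added support. Replicate 2 is the lowest of the 30 µg/L libraries for mt2, fthl28, hsp70.3, mpx, prdx1, bbc3, top2a, ccne2, irg1l, krt17 and il1b.

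Most of the proteasome genes and a smaller share of the chaperone genes were higher at 30 µg/L. In the chaperone list 23 of 51 rose, 6 fell and 22 did not pass the test. With library totals alone 15 rose and 12 fell, and 3 fell without replicate 2 of 30 µg/L. The abundant Hsp90 gene hsp90ab1 was at 5684, 5519 and 5552 CPM at 30 µg/L, against 2663, 2774 and 3368 CPM at 6 µg/L (0.93 ± 0.09), and the groups were well separated. The inducible Hsp70 gene hsp70.3 was at 77.6, 46.8 and 84.9 CPM at 30 µg/L, against 23.0, 24.2 and 19.1 CPM at 6 µg/L (1.66 ± 0.18), and averaged 215 CPM at 50 µg/L. The Hsp70 family gene hspa8b rose by 2.36 ± 0.24, the small heat shock gene hspb1 by 0.84 ± 0.08 and the chaperonin subunit gene tcp1 by 0.78 ± 0.08. The gene hsp90aa1.1, whose product folds muscle myosin in zebrafish, went the other way, at 125, 128 and 128 CPM at 30 µg/L, against 196, 208 and 179 CPM at 6 µg/L (-0.61 ± 0.07). Of 46 proteasome genes 30 rose and 1 fell, with a median of 0.27. The catalytic subunit gene psmb5 rose by 0.95 ± 0.08, psmb7 by 0.57 ± 0.07, and the regulatory particle genes psmd3 and adrm1 by 0.89 ± 0.10 and 0.78 ± 0.09. The proteasome counts were 15 and 3 with library totals alone, and 6 and 0 with 12 libraries fitted.

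The list for ATF4 targets and the unfolded protein response held 11 of 44 genes higher and 5 lower, with a median of 0.02, and 6 higher and 8 lower with library totals alone. Without replicate 1 or 3 of 30 µg/L 7 were higher, without replicate 2 of 30 µg/L 1 was lower, and without replicate 3 of 30 µg/L or replicate 1 or 2 of 6 µg/L 3 were lower. Within it the sensor kinase gene ern1 rose by 1.52 ± 0.08, the calcium-binding chaperone gene calr by 0.65 ± 0.07, the mitochondrial folate enzyme gene mthfd1l by 0.79 ± 0.07 and the serine synthesis gene psat1 by 0.54 ± 0.09. The call of psat1 was lost with 12 libraries fitted. Of 36 genes of cell death and cell cycle arrest 14 rose and 4 fell, and 11 and 9 with library totals alone. The pro-apoptotic gene bbc3 (Puma) was at 31.8, 23.9 and 25.0 CPM at 30 µg/L, against 7.33, 6.06 and 6.80 CPM at 6 µg/L, a clear separation with a change of 2.00 ± 0.13. The cell cycle inhibitor gene cdkn1a (p21) was at 18.8, 13.1 and 19.7 CPM at 30 µg/L, against 5.39, 4.1 and 4.35 CPM at 6 µg/L (1.91 ± 0.17). The caspase gene casp3b rose by 1.29 ± 0.11. Of 57 lysosome and autophagy genes 22 rose and 10 fell, and 6 fell without replicate 1 or 2 of 30 µg/L or replicate 2 of 6 µg/L and 4 without replicate 3 of 30 µg/L. Those that rose included the hydrolase genes ctsba (1.03 ± 0.08), ctsc (1.11 ± 0.11) and gusb (1.21 ± 0.10).

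Genes of dividing cells rose almost as a body. Of 57 mitosis genes 53 were higher and 0 lower, with a median of 0.60, and of 59 DNA replication genes 51 were higher and 1 lower, with a median of 0.61. Against the background of 17.1% higher, these were the highest shares of higher genes among the 56 lists. The topoisomerase gene top2a, which untangles chromosomes, was at 358, 355 and 376 CPM at 30 µg/L, against 203, 213 and 201 CPM at 6 µg/L (0.82 ± 0.07). The proliferation marker mki67 changed by 0.93 ± 0.07, the spindle gene tpx2 by 0.85 ± 0.06 and the cohesion gene cdca5 by 1.17 ± 0.09. Cyclin E2, which opens S phase, is encoded by ccne2, and was at 81.0, 72.9 and 78.9 CPM at 30 µg/L, against 29.9, 31.3 and 31.4 CPM at 6 µg/L (1.33 ± 0.08). The gene of the large subunit of ribonucleotide reductase, rrm1, rose by 1.06 ± 0.07, and that of the histone mRNA binding protein, slbp, by 1.1 ± 0.08. At 50 µg/L the means were 399.5 CPM for top2a, 83.3 CPM for ccne2 and 23.2 CPM for cdca5, and of these the step from 30 to 50 µg/L passed the test for cdca5 (-0.43, adjusted p = 0.00056). With library totals alone 49 mitosis and 46 replication genes still rose, and with 12 libraries fitted 40 and 34 did.

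Ribosomal protein genes shifted by a smaller step. Of 83 genes 54 rose and 0 fell, with a median of 0.27, and the largest change among the 4 best supported was that of rplp0, at 3647, 3682 and 3473 CPM at 30 µg/L, against 1957, 1862 and 2130 CPM at 6 µg/L (0.86 ± 0.07). The others named by the same rule were rps2 (0.57 ± 0.08), rpl12 (0.45 ± 0.08) and rps13 (0.37 ± 0.07). The count of this list rests on scaling and on single libraries. It was 19 with library totals alone, 25 without replicate 1 and 26 without replicate 2 of 30 µg/L, and 2 with 12 libraries fitted. Of 55 ribosome biogenesis genes 13 rose and 3 fell, and 8 rose without replicate 1 or replicate 3 of 30 µg/L. With library totals alone 5 rose and 11 fell, and the median of 0.10 became -0.03. The nucleolar gene nolc1 rose by 1.5 ± 0.14. It was at 103, 109 and 108 CPM at 30 µg/L, against 27.8, 37.1 and 47.9 CPM at 6 µg/L.

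**Figure D3:**
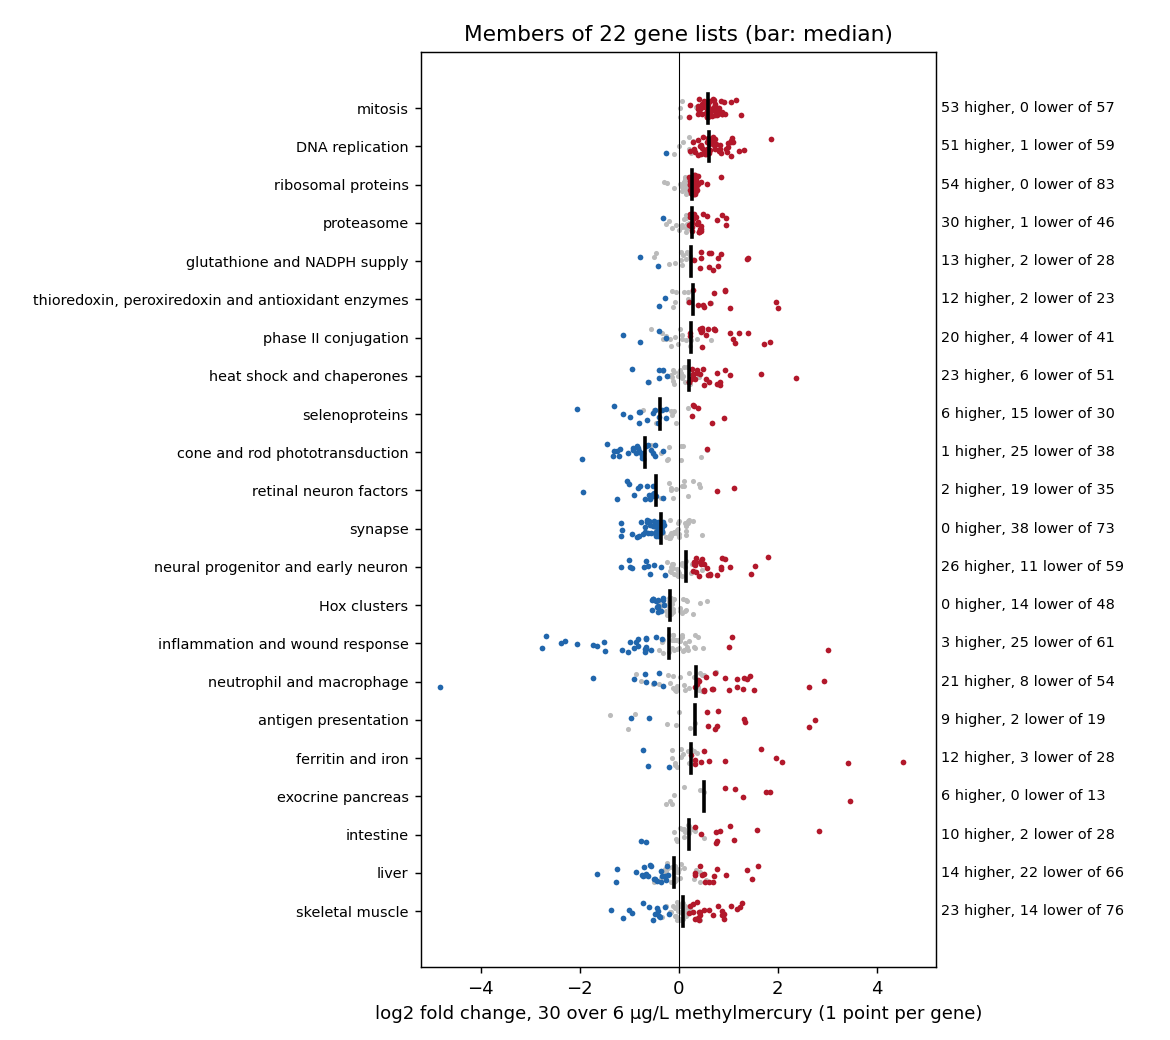
Each point is the log2 fold change, 30 over 6 µg/L, of 1 tested gene in 22 of the gene lists, red where called higher, blue where called lower and grey where not called, and the black bars are list medians. Mitosis and DNA replication genes lie to the right with medians of 0.60 and 0.61, and phototransduction genes to the left with a median of -0.68.

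Transcripts of photoreceptors and of other retinal neurons were lower at 30 µg/L. Of 38 phototransduction genes that passed the filter on low values 25 fell and 1 rose, with a median of -0.68. With no filter 27 of 61 fell and 4 rose, with a median of -0.57. The ultraviolet cone opsin gene opn1sw1 was at 16.5, 32.1 and 20.4 CPM at 30 µg/L, against 64.0, 71.9 and 51.7 CPM at 6 µg/L (-1.46 ± 0.19, adjusted p = 0.00012). The doses did not overlap, and the means over the dose series were 663, 62.5, 23.0 and 1.62 CPM at 0, 6, 30 and 50 µg/L. The blue cone opsin gene opn1sw2, named after its values were seen, changed by -0.85 ± 0.20 and its libraries overlapped between doses. The recoverin genes rcvrn2 and rcvrna, whose products sense calcium in photoreceptors, fell by 1.25 and 1.32 on the log2 scale. The G protein beta subunit gene gnb3a was at 27.9, 30.5 and 28.0 CPM at 30 µg/L, against 112, 108 and 114 CPM at 6 µg/L, a change of -1.95 ± 0.08 (adjusted p = 9.3e-09). The gene of a gamma subunit, gng13b, changed by -1.40 ± 0.08.

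The visual cycle and photoreceptor factor list was split, with 11 of 36 lower and 3 higher. Its retinoschisin gene rs1a, whose product holds retinal layers together, changed by -1.38 ± 0.10, the retinaldehyde-binding protein gene rlbp1a by -1.12 ± 0.11 and the transcription factor gene neurod1 by -0.95 ± 0.07. The RPE65 family gene rpe65b went up, at 77.0, 71.5 and 69.3 CPM at 30 µg/L, against 40.3, 31.4 and 35.6 CPM at 6 µg/L (1.02 ± 0.09). Among factors of other retinal neurons 19 of 35 fell and 2 rose, with a median of -0.45, and 9 fell with 12 libraries fitted. The bipolar cell factor gene bhlhe23 was at 10.7, 9.93 and 9.38 CPM at 30 µg/L, against 40.0, 36.3 and 37.9 CPM at 6 µg/L, a change of -1.93 ± 0.09 without overlap. The amacrine cell factor gene barhl2 changed by -1.25 ± 0.09 and isl1 by -0.89 ± 0.08. One of the 2 that rose was foxn4, a gene of retinal progenitors, by 1.11 ± 0.10. Of 54 lens genes 8 rose (14.8%) and 7 fell (13.0%), near the background, and 4 rose without replicate 3 of either dose. With library totals alone 4 rose and 23 fell, so the balance of the lens genes depends on the scaling. Among them crygm2d6, a gamma crystallin gene, changed by -1.88 ± 0.09 and crybgx by 0.70 ± 0.12.

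Synapse genes were lower and progenitor genes on balance higher. Of 73 synapse genes 38 fell and 0 rose, with a median of -0.36, and 12 fell with 12 libraries fitted. The vesicle fusion gene stxbp1b was at 17.1, 18.5 and 18.4 CPM at 30 µg/L, against 40.3, 40.0 and 39.5 CPM at 6 µg/L, tight and apart (-1.15 ± 0.08). The synaptotagmin gene syt5b changed by -1.16 ± 0.09, the syntaxin gene stx3a by -0.93 ± 0.10 and the vesicle glycoprotein gene sv2bb by -0.76 ± 0.07. In the list for axons and mature neurons 19 of 70 fell and 9 rose, but its median was -0.01. There the potassium channel gene kcnc1a (-1.14 ± 0.09), the retinal ganglion and sensory neuron factor gene isl2b (-0.93 ± 0.09) and the beta-synuclein gene sncb (-0.62 ± 0.08) fell. Of 59 genes of neural progenitors and early neurons 26 rose and 11 fell, and 16 rose without replicate 2 of 30 µg/L. With library totals alone 17 rose and 14 fell, and with 12 libraries fitted 10 and 8. The Notch target gene her4.3 was at 8.66, 9.41 and 8.55 CPM at 30 µg/L, against 2.00, 2.41 and 3.25 CPM at 6 µg/L (1.80 ± 0.17), and averaged 1.37 CPM at 50 µg/L. The neuronal differentiation factor gene insm1a rose by 1.46 ± 0.08 and the Notch ligand gene dlb by 0.85 ± 0.07. The 11 that fell included neurod1, given above, and the lowest change in this list was -1.17. Of 48 Hox genes 14 fell and 0 rose, and 5 fell with 12 libraries fitted. The lowest change among them was that of hoxc5a (-0.53 ± 0.11).

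Clock genes changed in both directions, 12 of 40 higher and 10 lower. The period genes per1b and per2 rose by 1.63 ± 0.17 and 0.98 ± 0.11, while aanat2, which encodes the enzyme of melatonin synthesis in the pineal gland, changed by -1.55 ± 0.20 and the nuclear receptor gene rorab by -1.02 ± 0.08. The median of this list was 0.11 and changed sign with library totals alone, where 10 rose and 14 fell.

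Many inflammatory genes were lower at 30 µg/L, while more leukocyte marker genes rose than fell. Of 61 inflammation and wound response genes 25 fell, 3 rose and 33 did not pass the test, with a median of -0.19, and 5 rose without replicate 2 of 30 µg/L. The immunoresponsive gene 1-like gene irg1l (chromosome 14, 11427052 to 11430610) was at 22.3, 13.1 and 19.4 CPM at 30 µg/L, against 117, 114 and 120 CPM at 6 µg/L. The change was -2.67 ± 0.14 (adjusted p = 9.9e-08) with no overlap, and the mean was 16.9 CPM over the 50 µg/L libraries and 14.0 CPM over the untreated ones. The prostaglandin synthase gene ptgs2b changed by -1.50 ± 0.13, the oxidase subunit gene noxo1a by -1.02 ± 0.12 and the matrix protease gene mmp9 by -0.66 ± 0.15. Named after their values were seen, the cytokine gene il1b was at 1.36, 0.697 and 1.16 CPM at 30 µg/L, against 2.89, 3.83 and 4.1 CPM at 6 µg/L (-1.72 ± 0.26), and the chemokine gene cxcl8a changed by -2.05 ± 0.34 at levels under 2 CPM. The chemokine gene ccl35.1 ran against the list with 2.90, 2.5 and 2.91 CPM at 30 µg/L, against 0.222, 0.41 and 0.367 CPM at 6 µg/L (3.02 ± 0.30).

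Of 54 neutrophil and macrophage genes 21 rose and 8 fell, with a median of 0.35. The neutrophil myeloperoxidase gene mpx was at 91.7, 57.1 and 83.1 CPM at 30 µg/L, against 29.8, 30.7 and 33.4 CPM at 6 µg/L (1.31 ± 0.14). The cathepsin S genes ctss2.1 and ctss2.2, of antigen-presenting cells, rose by 2.63 ± 0.18 and 1.32 ± 0.13. The summed level of the whole leukocyte list was 2803 to 2969 CPM at 30 µg/L and 2671 to 3123 CPM at 6 µg/L, so the sums overlapped. The largest fall in it was that of lect2l, a leukocyte chemotaxin-like gene, at 0.0468, 0.523 and 0.462 CPM at 30 µg/L, against 9.33, 8.02 and 11.4 CPM at 6 µg/L (-4.81 ± 0.34). Of 19 antigen presentation genes that passed the filter on low values 9 rose and 2 fell, and with no filter 11 of 40 rose and 9 fell, with a median of -0.02. Among them were b2m, the light chain of class I molecules, at 1.35 ± 0.16 and the class I gene mhc1zba at 2.76 ± 0.29. Interferon response genes were divided, 5 of 26 higher (19.2%) and 4 lower (15.4%), near the background of 17.1% and 17.0%. With no filter 8 of 50 were higher and 4 lower. They included the ubiquitin-like modifier gene isg15 at 3.33 ± 0.26 and the GTPase gene gbp3 at 1.75 ± 0.18 on the higher side, and xaf1 at -1.20 ± 0.23 and stat1a at -0.44 ± 0.08 on the lower.

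Ferritin-like genes, whose products belong to the family of iron storage proteins, gave some of the largest rises. For fthl28 (chromosome 3, 32105175 to 32106672) the level was 142, 61.8 and 126 CPM at 30 µg/L, against a mean of 10.3 ± 1.21 CPM at 6 µg/L (SD, n = 3), a change of 3.43 ± 0.25. Replicate 2 was the lowest of its dose and still far above every library at 6 µg/L. Named after its values were seen, fthl29 was at 17.9, 1.80 and 13.5 CPM at 30 µg/L, against 0.556, 0.365 and 0.551 CPM at 6 µg/L (4.53 ± 0.72). Another member, fthl31 (ENSDARG00000094210), changed by 2.09 ± 0.22. In contrast fthl27 (ENSDARG00000031776) was at 61.8, 50.5 and 51.0 CPM at 30 µg/L, against 102, 81.1 and 86.6 CPM at 6 µg/L (-0.72 ± 0.10), and averaged 378 CPM at 50 µg/L. These genes belong to 1 family on chromosome 3, and how the counting split reads among them is uncertain. In the whole ferritin and iron list 12 of 28 rose and 3 fell, with the cytochrome b561 gene cyb561a3b at 1.96 ± 0.13.

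More intestine genes rose than fell, while few pancreas genes could be tested. Of 37 exocrine pancreas genes 13 passed the filter on low values, ela2l only through its level at 30 µg/L, and 6 of the 13 rose. With no filter 6 of 31 rose and 2 fell, with a median of 0.11, and at a mean FPKM of 2 or more 1 of 5 rose. Their levels were low: the elastase gene ela2l was at 1.69, 2.61 and 1.80 CPM at 30 µg/L, against 0.278, 0.182 and 0.0612 CPM at 6 µg/L (3.46 ± 0.43). The carboxypeptidase genes cpa4 and cpa5 rose by 1.31 ± 0.23 and 0.94 ± 0.18, and cpa5 is also in the neutrophil and macrophage list. Of 28 intestine genes 10 rose and 2 fell, including the fatty acid carrier gene fabp2 at 144, 147 and 135 CPM at 30 µg/L, against 72.7, 57.5 and 66.9 CPM at 6 µg/L (1.11 ± 0.09). The retinol carrier gene rbp2b (1.58 ± 0.15), the apolipoprotein gene apoa4a (0.84 ± 0.09) and the endocytic adaptor gene dab2 (0.75 ± 0.09) rose as well. Liver genes leaned the other way, with 22 of 66 lower and 14 higher. The protease inhibitor gene a2ml was at 51.8, 55.7 and 51.8 CPM at 30 µg/L, against 169, 166 and 165 CPM at 6 µg/L (-1.65 ± 0.07), and the clotting factor gene f10 changed by -0.86 ± 0.08. The tyrosine breakdown genes hpdb and fah were higher, by 1.47 ± 0.09 and 1.37 ± 0.09.

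Of 76 skeletal muscle genes 23 rose and 14 fell, with a median of 0.09 that changed sign with library totals alone, where 17 rose and 18 fell, and 9 fell without replicate 3 of 30 µg/L. The myosin heavy chain gene myhc4 was at 20.4, 31.5 and 33.4 CPM at 30 µg/L, against 65.8, 59.3 and 61.2 CPM at 6 µg/L (-1.13 ± 0.14), and smtnl1, of the smoothelin-like proteins, changed by -1.38 ± 0.18. The calcium channel gene cacna1sa and the myoglobin gene mb both rose by 0.88, with SE of 0.11 and 0.09. Of 25 heart genes 3 rose and 4 fell, near the background, with tnnc1a, the cardiac troponin C gene, at -0.77 ± 0.17. These counts include both copies of actc1a, the chromosome 19 copy higher and the chromosome 20 copy lower. How reads were split between those copies is uncertain, as described below. Of 41 red cell genes 7 rose and 10 fell, the embryonic globin genes hbbe1.1 and hbbe2 by 0.85 ± 0.12 and -0.79 ± 0.09, which were no longer called when 12 libraries were fitted. Of 40 vessel genes 11 rose and 5 fell, among them the scavenger receptor gene stab2 (0.80 ± 0.11), lyve1b (1.09 ± 0.16) and egfl7 (0.82 ± 0.12), with a median of 0.12 that changed sign with library totals alone, where 10 rose and 10 fell.

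In skin, 20 of 52 genes rose and 7 fell, with a median of 0.07 that also changed sign with library totals alone, where 14 rose and 14 fell. The keratin gene krt17 (chromosome 19, 5367330 to 5372572) was at 129, 125 and 129 CPM at 30 µg/L, against 487, 450 and 433 CPM at 6 µg/L (-1.84 ± 0.07, adjusted p = 9.3e-09). Of 19 tested genes with a krt symbol 6 rose and 2 fell, with a median of -0.05. Among those that rose was krt15, by 0.88 ± 0.08. The keratin gene cyt1l, outside this count, was at 1271, 1326 and 1184 CPM at 30 µg/L, against 552, 442 and 478 CPM at 6 µg/L (1.36 ± 0.09). The mucin gene muc5.1 changed by -1.19 ± 0.11. Of 28 genes of ionocytes, the salt-transporting skin cells, 10 rose and 3 fell, 6 rose without replicate 3 of 30 µg/L, and 5 rose and 5 fell with library totals alone. The ammonia transporter genes went apart, with rhcga at 122, 67.9 and 117 CPM at 30 µg/L, against 22.6, 23.8 and 33.4 CPM at 6 µg/L (1.95 ± 0.20), and rhcgb at -2.12 ± 0.34. The chloride channel gene clcn2c rose by 1.01 ± 0.12 and the carbonic anhydrase gene ca15a by 0.73 ± 0.09.

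Some of the largest changes were nearly all-or-none. Genes near 0 at either dose pass the filter on low values through their level at the other dose. The cytochrome P450 gene cyp2aa7 (chromosome 23, 42336084 to 42341795) was at 13.8, 10.9 and 11.7 CPM at 30 µg/L, against 0.167, 0.0911 and 0.122 CPM at 6 µg/L (6.54 ± 0.26). It averaged 5.77 CPM over the untreated controls. Its annotated span overlaps that of cyp2aa8, which did not pass the test (0.37 ± 0.18, adjusted p = 0.13). The gene cyp2p9 (chromosome 20, 25581627 to 25584869) was the reverse, at 0.0937, 0.116 and 0.139 CPM at 30 µg/L, against 4.78, 3.1 and 2.82 CPM at 6 µg/L (-4.86 ± 0.40). In the cytochrome P450 list, 11 of 54 rose (20.4%) and 10 fell (18.5%), near the background, and 7 rose without replicate 1 of 30 µg/L. Those that fell included cyp4v8, with a change of -1.44 ± 0.19. The unnamed gene si:ch211-281l24.3 (chromosome 15, 40137564 to 40175894) was at 0.515, 0.232 and 0.277 CPM at 30 µg/L, against 25.7, 31.2 and 28.7 CPM at 6 µg/L (-6.33 ± 0.20). The genes KDELR3 and znf1177 had no count in any library at 30 µg/L and passed the filter only through their level at 6 µg/L. Their means at 0 and 50 µg/L were 0.198 and 0.0184 CPM for KDELR3 and 0.437 and 0.149 CPM for znf1177. For KDELR3 the level was at 1.5, 1.09 and 1.16 CPM at 6 µg/L so that it was at least 25.1-fold lower at 30 µg/L, taking 3 counts over the 3 libraries as the floor. At 6 µg/L znf1177 was at 0.889, 1.37 and 1.1 CPM, which made it at least 22.5-fold lower at 30 µg/L. In all, 112 genes changed at least 8-fold, 67 up and 45 down. Of these, 84 carry clone names or numbers in place of a gene name, and 86 had a mean under 5 CPM at both doses. For 89 of the 112 the step from 6 to 30 µg/L differed from the step from 30 to 50 µg/L, by the test described below.

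Most of the tested members of 2 gene families were lower. Chosen after their values were seen, 12 of 16 tested protocadherin 1 gamma genes, cell adhesion genes of neurons that lie in 1 cluster, fell and 3 rose. In that cluster pcdh1g33 (chromosome 10, 21783213 to 21820002) was at 3.04, 4.01 and 2.08 CPM at 30 µg/L, against 35.8, 35.6 and 32.5 CPM at 6 µg/L (-3.53 ± 0.16). The change was -2.96 ± 0.12 for pcdh1g22 and -2.11 ± 0.13 for pcdh1g26. Likewise chosen after their values were seen, all 8 tested genes of the ms4a17a family fell, with a median of -2.86. The family has 15 members in the deposited data. In both families a gene low at 30 µg/L could pass the filter on low values through its level at 6 µg/L. The counts of tested genes that fell are therefore no measure of the whole families. The members of each family resemble each other, so the split of reads among them is uncertain.

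Genes whose step from 6 to 30 µg/L differed from their step from 30 to 50 µg/L were found by testing the difference of the steps over the 9 exposed libraries. Of 19682 genes, 2446 had a more positive first step (12.4%) and 2173 a more negative one (11.0%). The second step itself, 50 over 30 µg/L, gave 2940 of 19539 genes higher (15.0%) and 2889 lower (14.8%), and it shares the 30 µg/L libraries with the first. The actin gene actc1a on chromosome 19 (ENSDARG00000076126, 47549568 to 47555956) peaked at 30 µg/L, where its libraries were at 120, 145 and 136 CPM, against 5.78, 6.56 and 7.29 CPM at 6 µg/L (4.35 ± 0.11). The second step was -4.31, and the difference of the steps was 8.66 ± 0.19 (adjusted p = 8.1e-14). The means at 0, 6, 30 and 50 µg/L were 36.7, 6.54, 134 and 6.74 CPM, and the controls were spread widely, with an SD of 49.5 CPM. A gene of the same symbol lies on chromosome 20 (ENSDARG00000042535) and was at 302, 365 and 305 CPM at 30 µg/L, against 422, 425 and 472 CPM at 6 µg/L. The sum over both copies was 422, 509 and 441 CPM at 30 µg/L, against 427, 431 and 479 CPM at 6 µg/L, so that the summed values overlapped. How reads were split between these copies is uncertain.

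The ribonucleotide reductase gene rrm2 also has copies on both chromosomes. The copy on chromosome 19 (ENSDARG00000078069) was at 133, 134 and 126 CPM at 30 µg/L, against 42.6, 33.6 and 32.4 CPM at 6 µg/L, a first step of 1.86 ± 0.10 with a step difference of 2.48 ± 0.15. Over both copies the sum was 381, 388 and 368 CPM at 30 µg/L, against 218, 181 and 195 CPM at 6 µg/L, and these did not overlap. The sum averaged 401.7 CPM at 50 µg/L, so that the chromosome 19 copy peaked at 30 µg/L and the sum did not. Other genes with a peak at 30 µg/L were the prostaglandin reductase gene ptgr1, with means of 87.6, 41.2, 120 and 38.4 CPM at 0, 6, 30 and 50 µg/L, as well as spra, a sepiapterin reductase gene, with 6.51, 6.65, 21.1 and 6.52 CPM. At 6, 30 and 50 µg/L ern1 had means of 20.2, 57.8 and 21.5 CPM. The difference of the steps was 3.18 for ptgr1, 3.36 for spra and 2.94 for ern1 on the log2 scale. These 3 genes, like the chromosome 19 copies of actc1a and rrm2, were picked among the smallest p of this test. That they passed it was fixed by the choice.

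**Figure D4:**
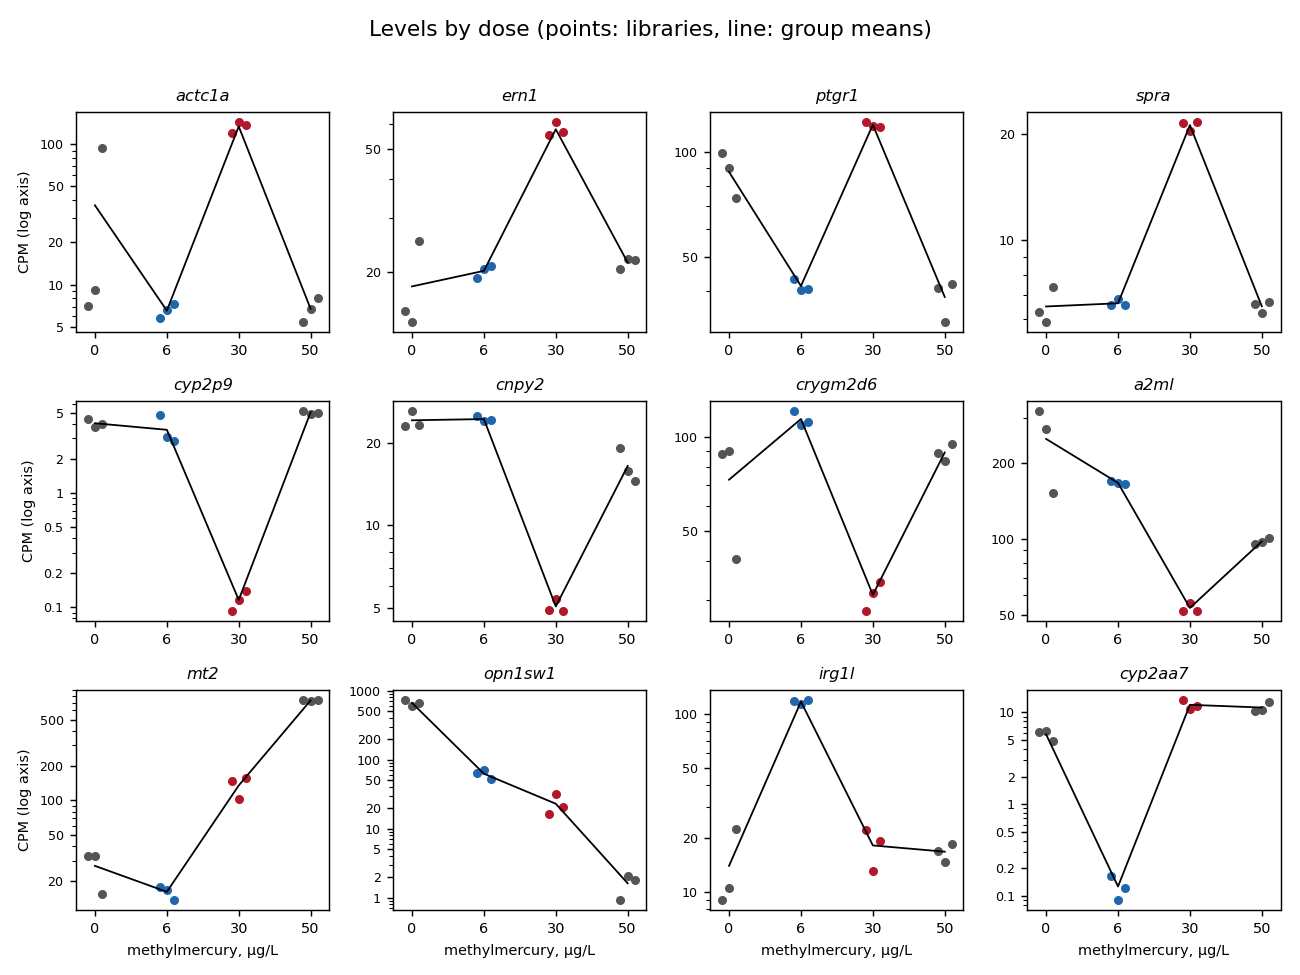
Each panel shows the CPM of 1 gene on a log axis at 0, 6, 30 and 50 µg/L, with points for the 3 libraries of each dose (blue at 6, red at 30 µg/L) and a line through the means. The panels of actc1a (chromosome 19 copy), ern1, ptgr1 and spra peak at 30 µg/L and those of cyp2p9, cnpy2, crygm2d6 and a2ml dip there. The panel of mt2 ends at 732 CPM, that of opn1sw1 at 1.62 CPM, that of irg1l at 16.9 CPM and that of cyp2aa7 at 11.3 CPM at 50 µg/L.

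Genes with a dip at 30 µg/L formed the other direction. Of those below, cnpy2, crygm2d6, lgals2b and sdr42e2 were likewise picked among the smallest p of the step test. The canopy family gene cnpy2 had means of 24.2, 24.4, 5.07 and 16.5 CPM at 0, 6, 30 and 50 µg/L, a step difference of -3.97 ± 0.21. The crystallin gene crygm2d6 had 73.0, 114, 31.1 and 89.3 CPM and the galectin gene lgals2b 96.3, 56.3, 29.1 and 96.7 CPM. The dehydrogenase family gene sdr42e2 had 3.12, 5.50, 1.5 and 15.8 CPM. For cyp2p9 the means were 4.07, 3.56, 0.116 and 5.08 CPM.

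Lists differed in how the 2 steps compared. Among mitosis genes 44 of 57 had a more positive first step and 1 a more negative one, against the background of 12.4% and 11.0%, and the second step gave 15 higher and 4 lower. Ribosomal protein genes had 21 of 83 more positive and 0 more negative. Phototransduction genes had 17 of 36 more positive and 3 more negative, and in their second step 27 of 34 fell and 0 rose, with a median of -1.41. Inflammation genes had 19 of 61 more negative and 2 more positive, and in the second step 19 of 59 rose and 4 fell. Skeletal muscle genes had 27 of 76 more positive and 6 more negative, with 33 of 76 lower in the second step. Among phase II conjugation genes 18 of 40 had a more positive first step and 4 a more negative one, and the second step gave 11 higher and 11 lower, with a median of -0.03. For single genes of the metal and antioxidant response the second step was positive too for mt2 (2.44, adjusted p = 2.7e-10), gsr (0.60), gclc (0.57), prdx1 (0.46) and hsp70.3 (1.62), and negative for hmox1a (-0.52), sod3a (-1.62) and sult1st5 (-0.37). The difference of the steps did not pass the test for gclc (0.05 ± 0.12, adjusted p = 0.81) or hsp70.3 (0.04 ± 0.28, adjusted p = 0.94).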

How the data were processed

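Per the submitters' processing notes, reads were checked with FastQC 0.10.1, trimmed with cutadapt 1.9.1, aligned to GRCz11 with HISAT2 2.0.1 and counted per gene with HTSeq 0.6.1, and DESeq2 is named. The annotation release and the handling of strand and of reads that map to several places are not stated in what was used here. The authors deposited raw counts and FPKM values for 32057 genes in 12 libraries. All deposited FPKM values were recomputed from the counts and gene sizes within 0.01. Coordinates are those of the deposited table.

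The counts of the 3 libraries at 30 µg/L and the 3 at 6 µg/L were fitted alone with edgeR 4.0.16 in R 4.3.3 (TMM scaling, quasi-likelihood F test, two-sided, Benjamini-Hochberg adjustment over 19714 genes whose FPKM averaged 0.5 or more). An adjusted p under 0.05 was the threshold. The steps 50 over 30 µg/L and the difference of steps used the same settings on 6 and 9 libraries. CPM levels use TMM factors over all 12 libraries, and each SE is the fold change divided by the square root of F. Totals of 15665053 to 22207603 counts set the precision, which covers counting error and the spread between libraries.

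Genes were named by a rule: the 10 largest rises and 10 largest falls with a symbol and groups that did not overlap, the same among genes with a mean of at least 50 CPM, up to 4 members of each list with the smallest p, the 10 smallest p in each direction for the difference of steps, and 12 genes of the metal, stress and inflammatory response. Not all genes so named are printed. For genes picked by size, p or lack of overlap, that trait follows from the choice. The comparison, the lists and the named genes were chosen with earlier results of these data known. Of 2495 listed symbols, 2325 were in the table, 44 were found through reference tables and 126 were not matched. The 56 lists are described by counts and medians, with no set test. The scripts were tested on simulated data. Alternatives were other scalings, filters and thresholds, a replicate block, fits on 9 or 12 libraries, leaving out each library, DESeq2 1.42.0, and limma 3.58.1 on log2 FPKM.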

Additional observations from a re-analysis of the deposited data

How the results depend on the processing

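Of the 6737 genes called at 30 against 6 µg/L, the count stayed within 1.5 times under other filters, median-of-ratios scaling (6770), DESeq2 (6009) and a fit on the 9 exposed libraries (7352), and no named gene reversed. Scaling moved the split: library totals alone gave 2139 higher and 5327 lower, limma on log2(FPKM + 1) 1972 and 5086, and limma on log2(FPKM + 0.1) 1938 and 5058. With library totals the medians of 19 of 56 lists changed sign, all of them within 0.126 of 0. With all 12 libraries fitted, 3068 genes were called (1414 higher, 1654 lower), and 1444 for the difference of steps (769 and 675). Named genes no longer called there were actc1a (chromosome 20), crybgx, hbbe1.1, hbbe2, hmox1a, mmp9, per1b, psat1, rpl12, rps13, rrm2 (chromosome 20) and txnrd3. The common coefficient of variation between libraries, beyond counting error, was 0.312 in the controls. It was 0.0781, 0.103 and 0.0641 at 30, 6 and 50 µg/L. The cause of the lower counts with 12 libraries was not tested. At an adjusted p under 0.01 the counts were 4053 (2057 and 1996), 2550 (1353 and 1197) for the difference of steps and 3564 (1862 and 1702) for 50 over 30 µg/L. At an adjusted p under 0.05 with a log2 fold change of 1 or more in either direction they were 1057 (547 and 510), 1796 (958 and 838) and 818 (377 and 441). Library totals gave 3302 more negative steps. Leaving out 1 library gave 4893 to 6205 calls at 30 against 6 µg/L. For the difference of steps it gave 3146 to 4829, with 1441 to 2218 more negative, the lowest without replicate 3 of 30 µg/L. Deviations of same-numbered libraries from their dose means had correlations of 0.18, -0.02 and -0.001. The highest with a library of another number were -0.02, 0.02 and 0.21 for replicates 1 to 3 of 30 µg/L. With 3 libraries a dose, these values cannot settle whether the numbers pair the libraries. With a replicate block 7133 genes were called (3675 higher, 3458 lower), 5376 for the difference of steps and 6587 for 50 over 30 µg/L.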

Other observations

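A stretch with the same 3 genes occurs on 2 chromosomes in the deposited coordinates (GRCz11), and the copies of scg5 and actc1a differed in direction while both rrm2 copies were higher at 30 µg/L. On chromosome 19 lie scg5 (47523730 to 47527192), the gene of a secretory granule protein, actc1a (47549568 to 47555956) and rrm2 (47564890 to 47571808). On chromosome 20 lie scg5 (29471151 to 29475172), actc1a (29476852 to 29483514) and rrm2 (29492469 to 29499426). These genes were looked up after the values of actc1a and rrm2 were seen. The chromosome 19 copies were higher at 30 µg/L, by 2.60 ± 0.42 for scg5, 4.35 ± 0.11 for actc1a and 1.86 ± 0.10 for rrm2. On chromosome 20, scg5 changed by -0.93 ± 0.14, actc1a by -0.44 ± 0.09 and rrm2 by 0.61 ± 0.07. The sums of both scg5 copies were 8.52, 8.65 and 6.14 CPM at 30 µg/L, against 10.3, 12.6 and 10.5 CPM at 6 µg/L. One control library stood apart, with actc1a on chromosome 19 at 93.8 CPM in replicate 3, against 7.11 and 9.15 CPM in replicates 1 and 2. The cause was not tested.

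Yolk and germ cell genes and the tooth matrix gene scpp5 were measured at low levels. The vitellogenin gene vtg7 was at 10.7, 6.91 and 13.4 CPM at 30 µg/L, against 2.78, 4.01 and 3.61 CPM at 6 µg/L (1.58 ± 0.23). Of 2 yolk protein genes tested 1 rose and 0 fell, and with no filter 1 of 7 rose and 1 fell. Of 5 germ cell genes that passed the filter on low values 3 fell and 2 rose, and with no filter 3 of 18 fell and 2 rose. The changes were -1.15 ± 0.23 for ddx4, -1.09 ± 0.24 for piwil1, 1.14 ± 0.23 for tdrd6 and 1.00 ± 0.19 for gra. The gene scpp5, of the secreted phosphoproteins of tooth enameloid, was at 2.29, 1.74 and 2.13 CPM at 30 µg/L, against 0.444, 0.638 and 0.245 CPM at 6 µg/L (2.16 ± 0.34). In its list, for bone and tooth matrix, 4 of 16 genes rose and 0 fell, with a median of -0.03. With library totals alone 3 of that list rose and 4 fell.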
